A study of Mus musculus with 16 samples.

Results

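The potassium channel genes of the mouse vomeronasal organ (VNO) were taken as every gene present in both the count and the RPKM tables whose symbol began with Kcn, followed by letters and a number. The rule found 97 genes of 24340. Of these, 77 encode pore-forming subunits, 16 encode auxiliary subunits and 4 are non-coding transcripts named after a channel gene (Kcnq1ot1, Kcnmb4os1, Kcnmb4os2 and Kcnd3os). RNA had been sequenced from the VNOs of outbred mice of Hsd:ICR background at 12 weeks of age and generation 88. The 4 High Runner (HR) lines, numbered 3, 6, 7 and 8, had been bred for high voluntary wheel running, and the 4 Control lines, numbered 1, 2, 4 and 5, had been bred without that selection. Each line gave 1 male and 1 female library, each a pool of 3 mice, so there were 16 libraries and 4 of each sex and linetype. Libraries held 15998552 to 70875276 reads counted on genes. The pools of a line are separate mice, but a linetype has only 4 independently bred lines, and the tables of the 2 sexes may come from different sequencing runs.

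Potassium channels let potassium leave the cell and so set the resting potential, end the action potential and pace repetitive firing. Voltage-gated (Kv) subunits open on depolarization, inward rectifiers (Kir) and 2-pore-domain (K2P) subunits carry current near rest, and calcium-activated subunits tie potassium current to calcium entry. Vomeronasal sensory neurons, which detect pheromones and other chemosignals through receptors coupled to the channel Trpc2, fire tonically during a stimulus. ERG channels of the Kcnh family, the BK channel Kcnma1, the SK channel Kcnn3 and the GIRK channel Kcnj3 have been tied to their electrical responses. The libraries carried the markers of that tissue: Omp, the marker of mature sensory neurons, had a median of 1086 RPKM and Trpc2 one of 322. Trpc2 was at 0 in the count tables although it had RPKM values, so it entered no test. In a tissue with many cell types, more cells of a type and more RNA per cell cannot be told apart.

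The part of the protein that makes a channel select potassium is a short loop in the pore, the selectivity filter, and its codons are shown because they define the pore-forming genes among those chosen here by symbol alone. The pattern searched in the longest GENCODE M21 coding sequence of each gene was threonine or serine, then valine, isoleucine, threonine, leucine, methionine or alanine, then glycine, then tyrosine, phenylalanine or leucine, then glycine. It was found in 77 of 77 pore genes, in 14 of them more than once, those 14 being the K2P genes, and in 0 of 16 auxiliary genes. Among 21541 other coding genes, 353 (1.64%) held it, so a match alone does not mark a channel. The windows below are 45 bases of coding sequence read from GENCODE M21 transcripts (GRCm38), 5′ to 3′ on the coding strand, with the 15 filter bases in capitals. They show the 3 most abundant Kv1 genes, the ERG genes Kcnh6 and Kcnh2 for comparison, Kcnc4 and Kcns2, which had small p-values among lines, and Kcns3, the most abundant silent modifier.
Kcna2: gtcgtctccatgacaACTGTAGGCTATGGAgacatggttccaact
Kcna5: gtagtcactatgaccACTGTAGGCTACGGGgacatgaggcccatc
Kcna6: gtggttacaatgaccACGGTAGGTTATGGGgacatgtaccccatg
Kcnc4: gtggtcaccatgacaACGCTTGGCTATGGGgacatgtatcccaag
Kcns2: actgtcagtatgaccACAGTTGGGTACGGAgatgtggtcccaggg
Kcns3: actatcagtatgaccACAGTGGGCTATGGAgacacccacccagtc
Kcnh6: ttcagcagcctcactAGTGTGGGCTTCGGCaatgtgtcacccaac
Kcnh2: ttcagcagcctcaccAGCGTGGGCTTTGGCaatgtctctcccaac
The filters of Kcnh2 and Kcnh6 begin with serine and hold phenylalanine where the Kv genes shown hold tyrosine. Kcnh2 and Kcnh6 shared 40 of the 45 bases, while Kcna2 shared 33 with Kcna5 and 23 with Kcnh2. Kcns2 and Kcns3 carry an intact filter although their proteins pass no current on their own and act by joining Kv2 subunits. Over the whole transcripts, at least 95% of 75-base words were unique to the gene for every channel gene except Kcnj14 (75.4%) and Kcnk4 (88.1%).

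At the top of the ranking by median RPKM, a level per length of transcript, 3 genes stood close together. Kcna2, the Kv1.2 subunit found along axons, had a median of 50.8 RPKM and a range of 42.3 to 76.3. Kcna5, the Kv1.5 subunit, had a median of 50.5 and a range of 22.5 to 64.7. Kcnmb2, a BK beta subunit that makes the BK current inactivate, had a median of 47.1 and a range of 34.1 to 55.0. These ranges overlapped. Each of the 3 genes ranked first in at least 1 library, as did Kcnk1, whose median was 29.3 RPKM and whose rank ran from 1 to 9. Kcna6, another Kv1 subunit, followed at 37.6 and Kcnh6, the ERG2 subunit, at 34.4 RPKM. The plot of RPKM by gene shows that every neighbour among the first 20 overlapped the next in its range over libraries.

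**Figure D1:**
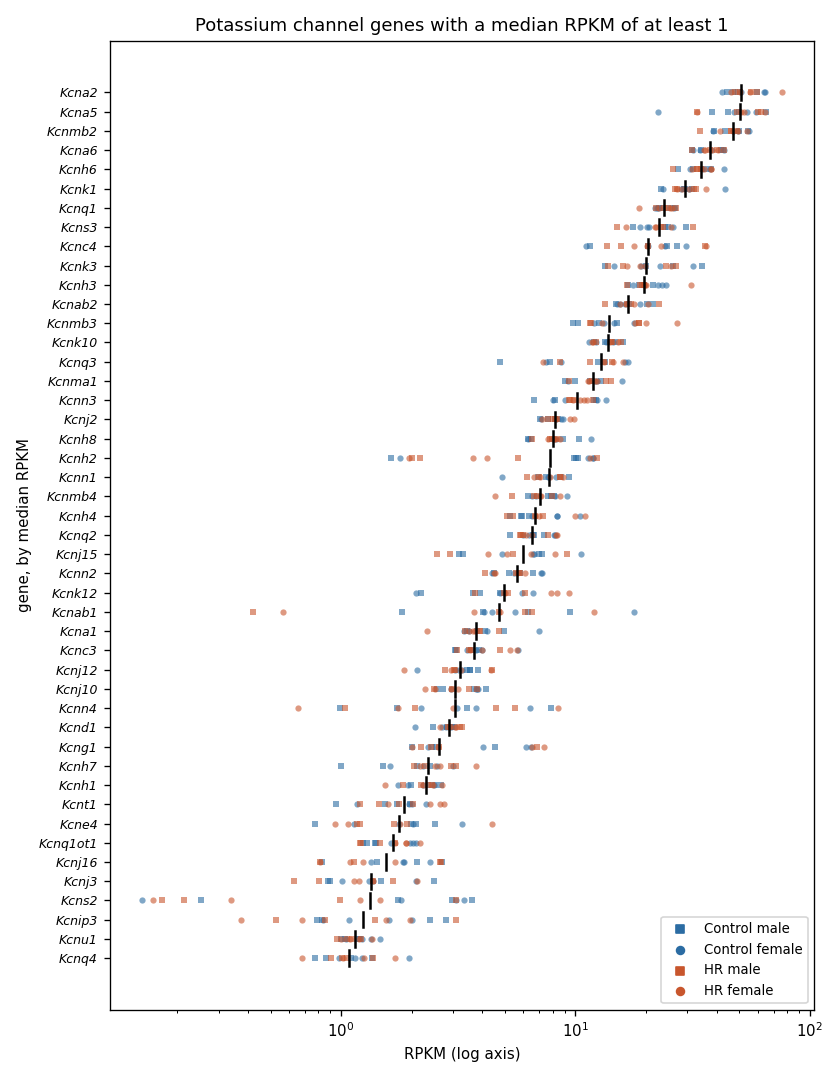
RPKM (log axis) of 46 of the 47 potassium channel genes with a median RPKM of at least 1, ordered by median; each point is 1 of 16 libraries, coloured by linetype and shaped by sex, and the black bar is the median. Kcna2, Kcna5 and Kcnmb2 overlap at the top, and Kcnh2, Kcnab1 and Kcns2 spread over far more than the genes around them.

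Of the 97 genes, 47 (48.5%) had a median RPKM of at least 1, against 55.9% of all genes in the tables. Only 17 reached 10 RPKM and 22 lay under 0.1. The 5 highest genes held 38.5% of the summed median RPKM of all 97 (572.2), and the 20 highest held 80.7%. Kcnk16, a K2P gene, was at 0 counts in every library. A count of 0, taken as fewer than 3 counts, allows up to 0.188 CPM, the counts scaled to library size, in the shallowest library and 0.0423 in the deepest, and such limits cover counting error only.

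By class, the Kv1 genes held 25.0% of the summed RPKM, with 3 of 8 members over 10 RPKM. The Kv10 to Kv12 (Kcnh) class followed with 14.2% and 7 of 8 members at 1 RPKM or more, led by Kcnh6 and by Kcnh3 at 19.7 RPKM. K2P genes held 12.5%, most of it from 3 of 14: Kcnk1 (29.3 RPKM), the acid-sensitive Kcnk3 (19.9) and Kcnk10 (13.8). Among auxiliary subunits the BK beta genes held 12%, with Kcnmb3 at 13.9 RPKM beside Kcnmb2. The pore of the same channel, Kcnma1, had a median of 11.9 RPKM and Kcnn3 one of 10.1.

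The remaining classes were lower. Kv7 genes held 7.88%, led by Kcnq1 (23.8 RPKM) and by Kcnq3 (12.9), a subunit of the M current. Kv3 was mostly Kcnc4 (20.5 RPKM), and the modifier subunits that are silent alone were mostly Kcns3 (22.7). The Kir class had 15 members and none at 10 RPKM, with Kcnj2 first at 8.20, while Kcnj3 was at 1.34. The Kv4 class, with Kcnd1, Kcnd2 and Kcnd3, held 0.720% and was led by Kcnd1 at 2.90 RPKM. The cytoplasmic Kv1 beta subunit Kcnab2 had 16.8 RPKM, whereas the single-span KCNE partners were led by Kcne4 at 1.77, the calcium-binding KChIP partners of Kv4 by Kcnip3 at 1.24 and the non-coding transcripts by Kcnq1ot1 at 1.66. Kcnh7, the ERG3 subunit, had 2.34 and Kcnh2, the ERG1 subunit, 7.77 RPKM, so Kcnh6 was the highest of the 3 ERG genes by level per length in the median library.

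Neighbouring genes had very different levels. Kcna1, Kcna5 and Kcna6 lie within 208 kb of chromosome 6 (GRCm38), all on the minus strand, with median levels of 3.76, 50.5 and 37.6 RPKM. Kcna2, Kcna3, Kcna10 and Kcnc4 lie within 423 kb of chromosome 3, where Kcna2 was the highest of all channel genes while Kcna3 had a median of 0.160 RPKM and Kcna10 of 0.

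The RPKM of some genes did not follow their counts. The transcript length implied by the deposited counts and RPKM was 0.104 of the GENCODE exon length for Kcnmb4, 0.313 for Kcnq3, 0.425 for Kcnk10 and 0.491 for Kcnma1. When levels were taken instead as normalized counts per kilobase of exon, 16 of the 20 highest genes stayed among the first 20. Kcnk10, Kcnma1, Kcnmb3 and Kcnq3 gave way to Kcna1, Kcnh2, Kcnh4 and Kcnn1. Kcna5 (48.0 per kilobase) then stood just before Kcna2 (47.2). Kcnmb4 moved from place 23 to place 59.

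Genes whose products pair with potassium channels or carry related current, 25 on a list outside the symbol rule, were high in several cases. Hcn2 and Hcn4, which carry the hyperpolarization-activated current, had medians of 38.0 and 16.2 RPKM. Cntnap2, which holds Kv1 channels at the axon, had 26.4, Lrrc26, a BK gamma subunit of secretory cells, 24.6, and Amigo1, a partner of Kv2 channels, 15.6 RPKM. Of the 21 partner genes tested, 9 differed among lines in the comparison given below, where 28.6% of all tested genes did. None of the 21 passed the adjusted threshold in edgeR's quasi-likelihood test of HR against Control, and 0 had an unadjusted p under 0.05.

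The question behind the breeding design is whether lines selected for running differ from Control lines. For the potassium channel genes no difference passed the test. Of 81 channel genes with enough counts, 0 were called at an adjusted p under 0.05 by the quasi-likelihood test of edgeR, with p-values adjusted by Benjamini and Hochberg's method over 16507 genes, and the smallest adjusted p was 0.9997. The background was 0.0242% of all genes (4 genes). At an unadjusted p under 0.05, 5 channel genes (6.17%) remained, against 3.3% of all tested genes. DESeq2 called 0 channel genes as well and left 6 at that unadjusted level, beside 630 of all 16507 tested genes. Both of these fits took the 2 pools of a line as independent libraries. With line as a random replicate block in limma-voom, which allows for the likeness of the 2 pools of a line (correlation 0.491), 2 channel genes, Kcnq5 and Kcnk12, remained of 262 genes in all, and the unadjusted p was 0.0809 for Kcnmb3, 0.0983 for Kcnmb4 and 0.0841 for Kcnd2. The fitted log2 differences, HR minus Control, were positive for 36 genes and negative for 45, with a median of -0.026 against 0.0025 for all tested genes. Among the 20 highest genes by RPKM the largest absolute log2 difference was 0.34, that of Kcnmb3.

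Kcnq5, a Kv7 subunit, had the largest log2 difference of the 5. Its CPM in male and female libraries were 11.3 and 6.79 in Control line 1, 4.77 and 4.59 in line 2, 6.55 and 6.91 in line 4, and 7.41 and 7.59 in line 5. In HR they were 3.19 and 2.75 in line 3, 5.09 and 5.36 in line 6, 4.89 and 4.55 in line 7, and 5.20 and 6.16 in line 8. HR line 3 was lowest and Control line 1 highest, and Control line 2 fell among the HR lines, so the groups overlapped. The log2 difference was -0.59 (SE 0.20), with an unadjusted p of 0.00917 in edgeR's test and an exact two-sided permutation p of 0.114 over the 8 line means. The smallest p that 4 lines against 4 can give is 0.0286.

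Kcnmb4, the neuronal BK beta subunit, reached that smallest value. Its CPM was 1.76 and 1.49 in Control line 1, 1.72 and 1.96 in line 2, 1.92 and 2.10 in line 4, and 1.22 and 1.98 in line 5. The HR libraries had 1.35 and 0.955 in line 3, 1.36 and 1.58 in line 6, 1.53 and 1.14 in line 7, and 1.37 and 1.51 in line 8. The single libraries of the linetypes overlapped, since the male library of Control line 5 was below most HR libraries, but the line means did not, being 1.60 to 2.01 in Control and 1.15 to 1.47 in HR. It was the only channel gene of which this held, and the same held for 0.788% of all tested genes. The log2 difference was -0.38 (SE 0.14, unadjusted p 0.0171 in edgeR's test). The counts behind it were only 26 to 124 per library, and 693 exon bases of Kcnmb4 are shared with Kcnmb4os2 and 355 with Kcnmb4os1, both on the other strand. On log2(RPKM + 1) the exact permutation p over line means was 0.429, and on log2(RPKM + 0.1) it was also 0.429.

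Kcnk12, a K2P subunit, was higher in HR by 0.56 on the log2 scale (SE 0.21, unadjusted p 0.0196 in edgeR's test). Its line means were 8.46, 8.28, 3.78 and 8.78 CPM in Control lines 1, 2, 4 and 5, and 10.9, 13.2, 7.64 and 11.9 CPM in HR lines 3, 6, 7 and 8. Control line 4 stood far below the rest, and HR line 7 lay below the other 3 Control lines. Without Control line 4 the difference was 0.34. Kcnmb3 was higher in HR by 0.34 (SE 0.16, unadjusted p 0.0432), with HR lines 7 and 8 at 14.5 and 12.2 CPM above every Control line and lines 3 and 6 at 9.03 and 8.22 within the Control range of 7.60 to 10.8. Without HR line 7 the difference of Kcnmb3 was 0.17 (unadjusted p 0.238 in edgeR's test). Kcnd2, a Kv4 subunit, differed by -0.41 (SE 0.19, unadjusted p 0.0423), with HR lines at 1.35 to 2.10 CPM and Control lines at 1.70 to 2.80. The exact permutation p over line means was 0.114 for Kcnk12 and Kcnd2 and 0.171 for Kcnmb3. None of the 5 passed the adjusted test, and the line means of all but Kcnmb4 overlapped between linetypes.

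**Figure D2:**
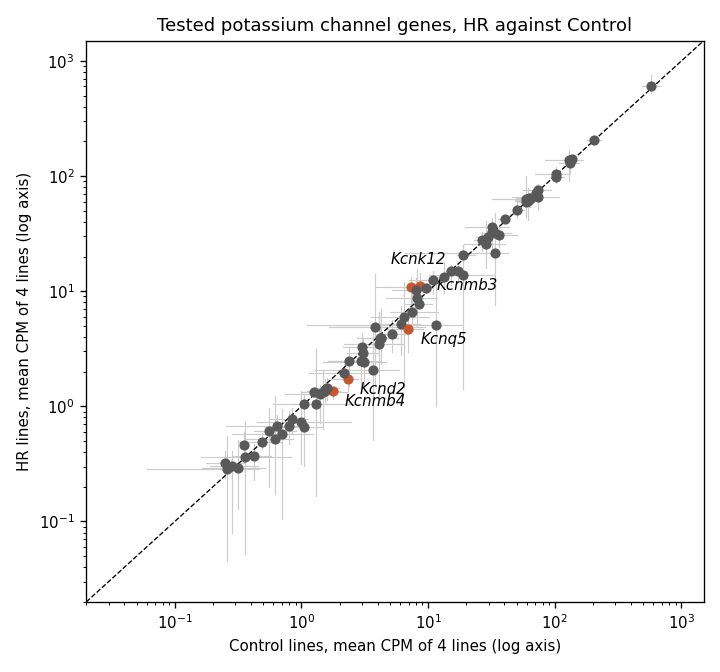
Mean CPM of the 4 HR lines against that of the 4 Control lines (both log axes) for the 81 tested channel genes; grey lines span the lowest to the highest line, the dashed line marks equal levels and the 5 genes with an unadjusted p under 0.05 are named. The genes lie along the line of equal levels, and for most of them the spread over lines crosses it.

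The channel genes named from vomeronasal physiology gave no call between linetypes. The log2 difference was 0.02 for Kcnn3 (SE 0.13), -0.17 for Kcnj3 (SE 0.27), 0.04 for Kcnma1 (SE 0.11), -0.05 for Kcnh6 (SE 0.08) and 0.37 for Kcnh7 (SE 0.18, unadjusted p 0.0574 in edgeR's test). Kcnh2 differed by -0.64 with an SE of 0.51, the lines of each linetype lying far apart in this gene, as given below.

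Lines of the same linetype differed in many channel genes. Of the 81 channel genes tested, 40 (49.4%) were called among lines within linetype at an adjusted p under 0.05 by edgeR's quasi-likelihood test, in which the male and female pools of a line, after removal of sex, give the error. The background was 28.6% of all tested genes. Of the 20 highest channel genes, 15 were called, Kcna6, Kcnh6, Kcnh3, Kcnab2 and Kcnj2 being the others. Among the 40 called, the highest line exceeded the lowest by a median of 2.82-fold (1.28 to 23.5), and by over 2-fold in 29. The median of that ratio was 2.08 over the tested channel genes and 1.47 over all tested genes. Called genes were spread over the classes: 7 of 10 tested K2P genes, 5 of 7 silent modifiers, 5 of 8 in the class of Kcnma, Kcnn, Kcnt and Kcnu genes, 5 of 12 Kir, 3 of 5 Kv7, 3 of 7 Kcnh and 2 of 7 Kv1 genes.

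Kcnh2, whose ERG1 current helps return the membrane to rest, had the smallest p. In male and female libraries it had 39.8 and 46.1 CPM in Control line 2, 40.3 and 44.7 in line 4, 39.9 and 44.4 in line 5, and 49.2 and 45.8 in HR line 6. In Control line 1 it had 6.37 and 6.70 CPM, in HR line 3 8.46 and 13.6, in HR line 8 7.79 and 7.48, and in HR line 7 22.6 and 16.1. Thus 1 Control line and 3 HR lines had lower levels than the other 4 lines, both sexes of a line lay close together, and the linetypes overlapped. The highest line exceeded the lowest 7.27-fold (adjusted p 4.06e-05 in edgeR's test). The related ERG genes did not share this spread: the lines differed 1.34-fold in Kcnh6, which was not called (adjusted p 0.164), and 2.48-fold in Kcnh7 (adjusted p 0.0152).

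Kcns2, a silent modifier of Kv2 channels on chromosome 15, was also low in Control line 1 and in HR lines 3 and 8. It had 20.02 and 17.1 CPM in Control line 2, 16.1 and 17.7 in line 4 and 9.73 and 9.69 in line 5. HR line 6 had 16.7 and 7.84 CPM and HR line 7 5.43 and 6.28. By contrast Control line 1 had 1.40 and 0.819, HR line 3 0.875 and 1.62, and HR line 8 1.17 and 0.834. The ratio of highest to lowest line was 18.6 (adjusted p 0.000196 in edgeR's test), and both linetypes held high and low lines. Kcnh2 lies on chromosome 5, so the 2 genes are not neighbours. Kcns3, the more abundant modifier, differed only 1.88-fold among lines, from 41.8 CPM in HR line 3 to 78.4 in HR line 7 (adjusted p 0.00240).

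Kcnip4, a KChIP partner of Kv4 channels, was high in 1 Control and 1 HR line. It had 5.76 and 13.0 CPM in Control line 4 and 14.7 and 13.5 in HR line 6, while the other 12 libraries lay between 1.48 and 2.503. The adjusted p in edgeR's test was 6.34e-05. Its RPKM showed the same lines, at 2.48 and 7.05 in Control line 4 and 7.65 and 7.004 in HR line 6 against at most 0.430 elsewhere, so the step was larger in RPKM than in counts. The ratio of counts to RPKM varied across libraries with an SD of 1.08 on the log2 scale, against 0.00936 for Kcna2. Many annotated transcripts lie within the span of Kcnip4, and 168 of its exon bases are shared with 5730480H06Rik on the other strand, a gene that was also called among lines. Its 2 high lines also differed from each other in the male libraries.

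Kcnc4, a fast Kv3 subunit, was 3.14-fold apart between the extreme lines (adjusted p 0.000438). HR line 6 had 100.6 and 99.0 CPM and Control line 2 had 33.1 and 30.6. Control lines 1, 4 and 5 had 69.6 and 66.1, 58.4 and 56.2, and 77.7 and 79.8 CPM, and HR lines 3, 7 and 8 had 45.3 and 62.9, 39.3 and 48.9, and 58.4 and 55.5. The 2 extremes were 1 line of each linetype and the rest overlapped. Its neighbour Kcna2 differed only 1.52-fold among lines, with HR line 7 highest (adjusted p 0.0384).

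Kcnab1, the second Kv1 beta subunit, was low in 1 line. HR line 7 had 1.26 and 1.54 CPM, from 52 and 73 counts. The other HR libraries had 18.7 and 31.7 in line 3, 17.8 and 10.6 in line 6, and 14.8 and 14.7 in line 8. Control libraries ranged from 5.67 to 48.0, with both of these extremes, in lines 1 and 5, coming from pools whose partner of the other sex was far from them. HR line 7 was below every other library, and the ratio to the highest line was 23.5 (adjusted p 0.0107 in edgeR's test). Without HR line 7 the adjusted p was 0.182, so the call rested on that line. Kcnab2, the other abundant Kv1 beta subunit, was highest in HR line 7, with 1.43-fold between extreme lines, and was not called (adjusted p 0.0564).

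**Figure D3:**
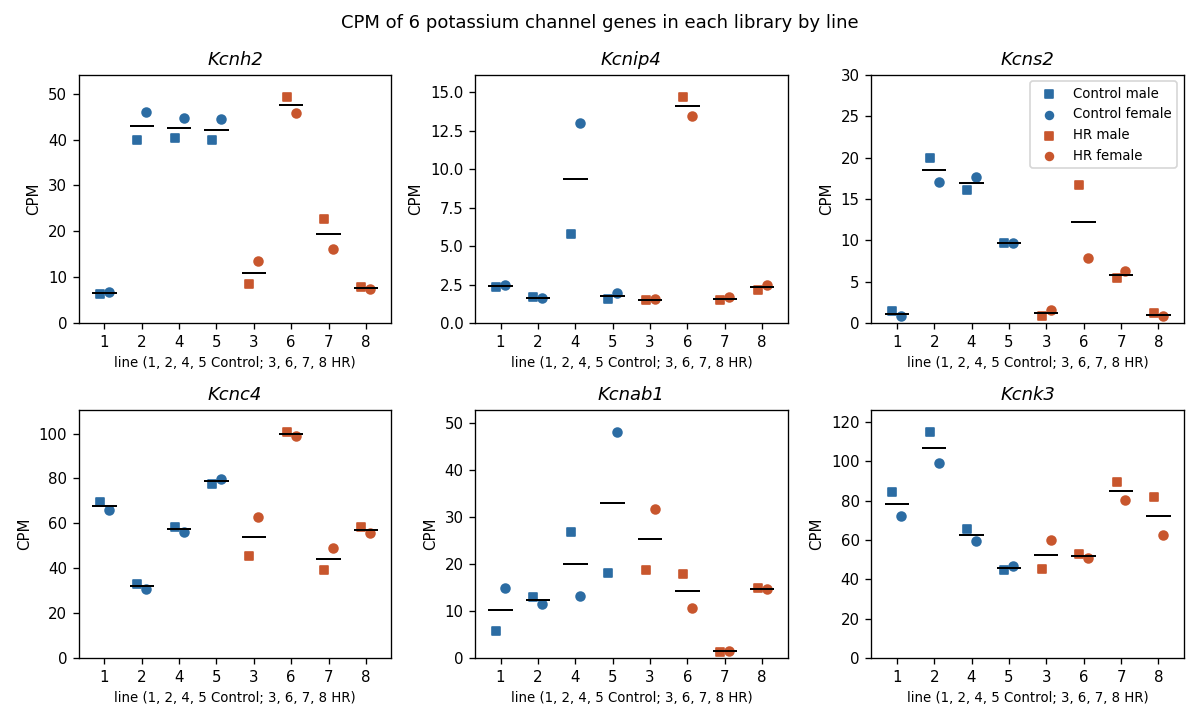
CPM of 6 channel genes in each library, by line; squares are male pools, circles female pools, bars the mean of both, and colours the linetype. Kcnh2 and Kcns2 are low in Control line 1 and HR lines 3 and 8, Kcnip4 is high in Control line 4 and HR line 6, and Kcnab1 is at 1.26 and 1.54 CPM in HR line 7.

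Other genes among the first 15 by p are given by their extreme lines. The acid-sensitive K2P gene Kcnk3 ranged from 45.6 CPM in Control line 5 to 107.0 in Control line 2 (2.35-fold, adjusted p 0.00225 in edgeR's test). Kcnq3 ranged from 19.5 CPM in Control line 4 to 43.2 in HR line 8, and Kcnj3 from 4.54 in HR line 7 to 11.96 in Control line 1. Kcna5 was lowest in Control line 5 at 83.4 CPM and highest in HR line 8 at 169.1, and Kcnmb2 lowest in HR line 3 at 103.9 and highest in Control line 2 at 154.6. The Kir genes Kcnj8 and Kcnj15 and the KChIP gene Kcnip3 were each low in HR line 8 or 7 and high in Control line 4 or 5 or HR line 3, with ratios of 3.63, 2.56 and 5.30. Some genes with larger p-values had ratios above that of Kcnh2, such as Kcnn4, a calcium-activated subunit, at 8.23 (adjusted p 0.0182) and the silent modifier Kcng2 at 19.0 (adjusted p 0.0324), the latter from as few as 5 counts in a library. Over all 40 called genes, HR line 8 was the lowest line for 11 and Control line 5 for 9, whereas Control line 5 and HR line 6 were each highest for 7.

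**Figure D4:**
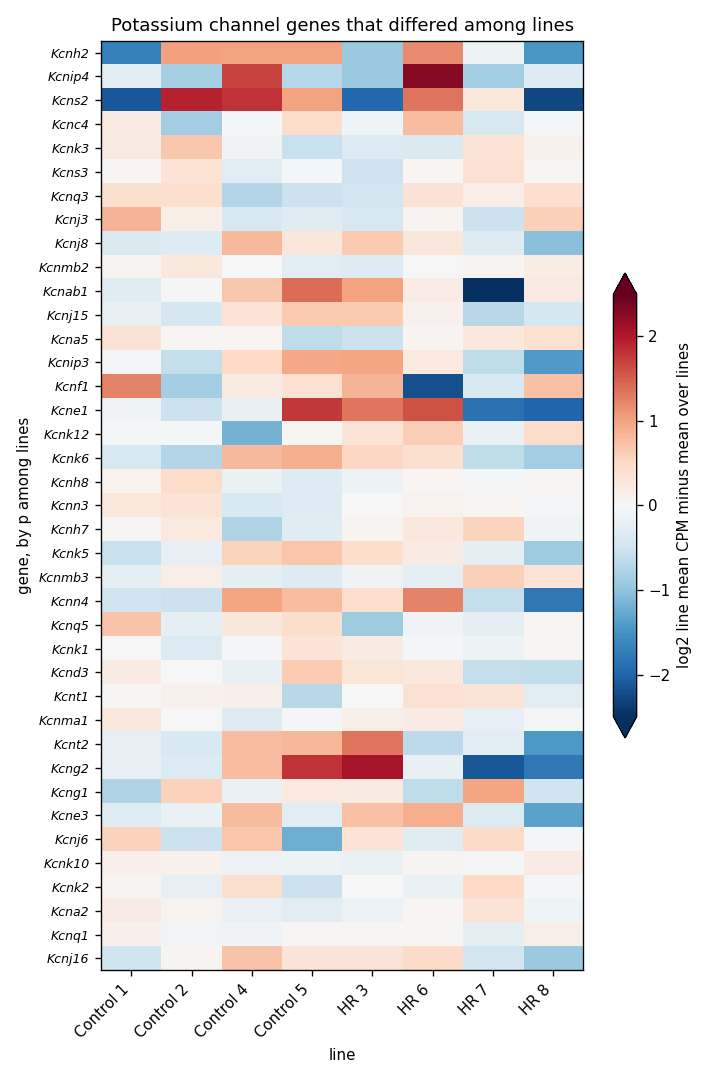
Log2 of the line mean CPM (with 0.01 added) minus its mean over the 8 lines for 39 of the 40 channel genes called among lines, ordered by p; red is above and blue below the mean of the gene, and colours are capped at 2.5. Both linetypes hold red and blue cells in most genes, and the lowest cell of Kcnab1 is HR line 7.

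Line means of summed markers of other cells differed too. The summed CPM of 6 smooth muscle and pericyte markers (6 of 6 detected) ran from 192.5 in HR line 8 and 266.8 in HR line 7 to 1039 in HR line 3 and 1214 in Control line 5. The summed CPM of the sensory neuron markers ran from 3269 in Control line 5 and 3280 in HR line 3 to 4799 in HR line 8, with Trpc2 the one defining marker at 0 counts. That of 5 gland markers ran from 1540 in HR line 8 to 19930 in Control line 5. Of these markers Lcn3 had by far the highest median, 9991 RPKM (428.0 to 54160), so the gland sum mostly follows Lcn3. Krt18, the next, ranged only from 271.9 to 362.0 RPKM and was not called among lines (adjusted p 0.192 in edgeR's test). Bpifa1, Aqp5 and Dcpp1 were lower and also spread widely over libraries. The 2 pools of a line could lie far apart. In Control line 4 the muscle sum was 1130 in males and 436.2 in females, and in HR line 3 the gland sum was 25420 and 6996. In HR line 7 the muscle sums were 267.5 and 266.0. Among lines, 3 of 6 muscle markers and 2 of 5 gland markers were called, against 28.6% of all tested genes. Kcnj8, a vascular Kir gene, Kcnj15 and Kcnip3 were higher in HR line 3 and Control line 5 than in HR lines 7 and 8, as these muscle and gland sums were, and Kcna5 and Kcnmb2 had their lowest means in HR line 3 and Control line 5. With the summed neuron markers as a covariate 14 channel genes were called among lines, and with the summed muscle markers 16, while the genes called of all 16507 tested fell from 4714 to 1550 and 1304. Both covariates were chosen after the data were seen. Of the 40, 12 were called under both, among them Kcnh2, Kcnip4, Kcns2, Kcnc4, Kcns3, Kcnj3, Kcnab1, Kcnf1, Kcnk12, Kcnh7 and Kcnma1. How many of the 4714 genes were called under both was not counted, so the 12 have no background. Adjusted p in these edgeR fits, neuron covariate first, was 0.000157 and 9.36e-05 for Kcnh2 but 0.331 and 0.219 for Kcnmb2, and 0.576 and 0.326 for Kcnip3. Kcna5 kept its call with the neuron covariate (adjusted p 0.0132) and lost it with the muscle one (0.210). Kcnj8 (0.0952 and 0.0977) and Kcnj15 (0.403 and 0.306) were called in neither. HR and Control ranges overlapped for every marker list.

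Genes near Kcnh2, Kcns2, Kcnip4, Kcnc4 and Kcnab1 differed in how often they were called. Within 0.5 Mb of Kcnh2, 7 of 22 tested genes (31.8%) were called among lines, and around Kcns2 2 of 8 (25.0%), both near the background. Around Kcnc4 7 of 15 (46.7%), around Kcnab1 4 of 7 and around Kcnip4 3 of 3 were called. These windows were drawn after the genes were seen. The alignment accepted no mismatch to the reference, so fewer reads because of a sequence variant in a line and less RNA cannot be told apart for any of these genes.

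Sex differences were examined last. Kcnq1ot1, the long non-coding transcript from the opposite strand of Kcnq1 that is known from imprinting, was the only channel-named gene called (background 0.188% of tested genes). Its CPM in male and female libraries was 112.1 and 168.0 in Control line 1, 108.8 and 171.5 in line 2, 121.6 and 136.5 in line 4, and 122.4 and 159.6 in line 5. In HR it was 128.3 and 153.4 in line 3, 146.3 and 156.5 in line 6, 103.9 and 178.1 in line 7, and 107.1 and 141.5 in line 8. The female pool was higher in 8 of 8 lines, although the highest male library, that of HR line 6, exceeded the lowest female ones. The log2 difference, female minus male, was 0.41 (SE 0.08, adjusted p 0.0390 in edgeR's test, and 0.0472 with line as a replicate block, a fit that called 90 genes in all against 31). The call was kept in only 1 of the 8 fits that each left out a line, the one without HR line 6. Sex and sequencing run may coincide, which was not tested, and since 93092 bases of Kcnq1ot1 lie across from Kcnq1 and the use of strand in counting is not given, its reads and those of Kcnq1 introns cannot be told apart. Kcnq1 itself differed by -0.12 (SE 0.07, unadjusted p 0.102 in edgeR's test). For the interaction of sex and linetype, 0 channel genes were called by edgeR's quasi-likelihood test and 0 had an unadjusted p under 0.05, against backgrounds of 0% and 0.394%. DESeq2 likewise called 0, and the fit with line as a block called 0 and left 3 under the unadjusted threshold, beside 320 of all 16507 tested genes in that fit.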

How the data were processed

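Total RNA from VNO pools was depleted of ribosomal RNA, and directional libraries were read as 75-nucleotide single ends. Per the submitters' notes and methods, the authors aligned reads with STAR 2.6.1d to GRCm38/mm10 without mismatches or multiple locations. The deposited count tables hold the authors' raw counts per gene, and the deposited RPKM tables hold their Cufflinks values per length and depth. The counting tool, annotation and use of strand are not given in the sources used here. Summary entries in the male counts (34.9% to 37.3% of reads) and 4 entries of repeated names were left out.

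Counts were tested with edgeR 4.0.16 (quasi-likelihood, TMM scaling, filterByExpr with a minimum count of 10) in R 4.3.3 over 16507 genes, with Benjamini-Hochberg adjustment and a threshold of 0.05. Models held sex and linetype, their interaction, or sex and line, with 6 contrasts among lines within linetype. DESeq2 1.42.0 and limma 3.58.1 were alternatives. Line means were compared by exact two-sided permutation (70 splits). CPM used TMM-scaled totals. Log2 CPM had a prior count of 2 for the correlations between pools, and a smaller offset for the permutation test and the flagged libraries. P-values of the edgeR fits measure the spread between pools. The linetype fit took the 2 pools of a line as independent, although they were alike (correlation 0.491). Lines were the units in the permutation test and in the sums per line. Fits were tested on simulated data: for linetype, 92% of genes changed 2-fold were called among 16434 genes, and among lines 67% of 16438. The simulated counts held no differences among lines except the changes put in, and their spread was taken after line was removed. Real lines of a linetype differed in many genes, so the 92% does not give the power of the linetype test here.

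The pools of a line share that line by label. The correlations of their deviations from group means were 0.321 to 0.708 over all tested genes. The sex fit reported held sex and linetype without line, and line entered as a replicate block only in an alternative fit. Every pair of libraries compared differed by more than sampling noise (chi-square per degree of freedom 32.1 to 818). The members and gene lists were chosen with earlier results of these data known. Genes were named if among the 20 highest by median RPKM, highest of their class, at an unadjusted p under 0.05 (up to 15) or any adjusted p under 0.05 between linetypes, among the first 15 called among lines, called for sex or interaction (up to 5 each), known from vomeronasal physiology (Kcnn3, Kcnj3, Kcnma1, Kcnh2, Kcnh6, Kcnh7), or at 0 counts throughout. The values of 1 gene that the rule names are not reported here, though it is counted in totals. Genes outside that rule were named after their values were seen. Positions and sequences came from GENCODE M21. Alternatives are given in the closing section.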

Additional observations from a re-analysis of the deposited data

Results flagged for a closer look

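Among 21 named genes, each examined in 4 groups of 4 libraries, 6 of 84 groups (7.14%) held a library whose gap to the nearest other took most of the group's range on the log2 scale. Chance alone flags about 1 in 20 groups of genes not chosen by their values. The 21 genes were chosen by p-values from these same data, so that rate is no background for the 7.14%.

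Kcnh2 was flagged in both sexes of Control line 1. The male library had 6.37 CPM where the other Control males had 39.8 to 40.3, and the female library had 6.70 CPM where the other Control females had 44.4 to 46.1. Kcnab1 had 1.26 CPM in the male library of HR line 7, against 14.8 to 18.6 in the other HR males. Kcnip4 had 14.7 CPM in the male library of HR line 6, against 1.48 to 2.15 in the others. In these 3 genes the female pool of the same line stood at the same end of its group.

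Kcnq5 had 3.19 CPM in the male library of HR line 3, against 4.89 to 5.20 in the other HR males. Kcnmb4 had 1.53 CPM in the male library of HR line 7, against 1.35 to 1.37 in the other HR males, while its female library had 1.14. The Kcnmb4 counts in those males were low, 63 in line 7 against 44 to 57.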

How the results depend on the processing

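Between linetypes, 0 channel genes were called under any alternative run: DESeq2, RLE scaling, other filters, limma-voom with line as a random replicate block, sums per line, each sex alone, either marker covariate, and each line left out (0 to 0). Those at an unadjusted p under 0.05 numbered 1 to 8, with 2 under the replicate block (262 of all genes) and 1 with sums per line (207). The fit reported had 5 (545 of all genes) and males alone had 1 (184). The count of 8 came without HR line 3 (1551 of all genes) and with the neuron marker covariate (1073). With a line left out, Kcnq5 stayed under that unadjusted level throughout, whereas Kcnmb4 (without Control line 4), Kcnk12 (without HR line 6 or 8), Kcnd2 (without Control line 2 or 4 or HR line 3 or 6) and Kcnmb3 (without Control line 1, 4 or 5 or HR line 7 or 8) passed above it. All genes called numbered 4 in the fit reported, 30 with DESeq2, 1 to 17 with a line left out, and 0 with the replicate block, with sums per line and with each sex alone. The exact permutation test passed for 1 of 5 named genes on log2 CPM and for 0 on log2(RPKM + 1) and on log2(RPKM + 0.1), the gene being Kcnmb4. These 5 had been chosen by their unadjusted p between linetypes in the same data, so the pass is no independent support. Among lines, 40 channel genes were called, 14 with the neuron marker covariate and 16 with the muscle one, 41 with RLE scaling and 28 to 40 with a line left out (all genes: 4714, then 1550, 1304, 4733 and 3076 to 4953), and 16 of the 40 held in all 8 of those fits. The like share of all called genes was not counted over the 8 fits. Of the first 15 by p, Kcnab1, Kcna5 (adjusted p 0.0504 without HR line 3) and Kcnip3 (0.0561 without HR line 8) lost their call in 1 of them. For sex, DESeq2 called 2 channel genes (Kcnq1ot1 and Kcnh4) and fits without a line 0 to 1, while the replicate block called 1. All genes called for sex numbered 31 in the fit reported, 182 with DESeq2, 13 to 25 without a line and 90 with the block. Genes of at least 1 RPKM numbered 47, or 38 to 59 under other scalings and limits. The causes of these shifts were not tested. Depth limits low genes such as Kcnmb4, and 16 channel genes were too low to test.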
